A study of Mus musculus with 9 samples.

Results

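The Mbnl2 CLIP peaks of 8 very long genes, Nrg3, Lrp1b, Lingo2, Csmd1, Opcml, Kcnip4, Macrod2 and Cdkal1, were examined. They were the peaks listed under these gene symbols, 233 of 10407 peaks and 8 of 4800 genes with a peak. The genes were chosen by the number of peaks listed for them, a measured value, so the peak numbers below are a description and no test was made on them. CLIP joins a protein to the RNA it touches by ultraviolet light and sequences the short RNA pieces, called tags, that are pulled down with it.

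The series holds RNA-seq of hippocampus from 3 Mbnl2 ΔE2/ΔE2 knockout and 3 wild-type female mice aged 2 to 3 months, and CLIP of Mbnl2 from 3 wild-type female hippocampus libraries whose labels give an age of 3 months, with 11 to 12 weeks in the protocol. The sample labels give all groups a mixed C57BL/6 and 129 SvlmJ background, while the design text calls the CLIP mice BL6. ΔE2/ΔE2 names a deletion on both alleles, and the labels name no driver that would limit it to a cell type. The peaks therefore describe wild-type tissue, and the knockout enters only through the tables of exon changes. Hippocampus is a mixture of cell types. CLIP tag numbers were not scaled to transcript level, and fewer cells of a type and less RNA per cell cannot be told apart in them.

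Mbnl2 is a muscleblind-like protein with zinc fingers that bind RNA motifs holding the bases YGCY, and in brain it regulates alternative splicing of exons during postnatal development. It binds in introns beside the exons it regulates and also in 3′ untranslated regions of mature messenger RNA. The longest genes of the mouse genome include many that encode synaptic and cell-surface proteins, and their introns make up nearly all of the primary transcript. Nrg3 encodes a neuregulin, a ligand of the ErbB4 receptor. Lrp1b is a receptor of the low-density lipoprotein receptor family. Lingo2, Csmd1 and Opcml are surface proteins with leucine-rich repeats, CUB and sushi domains, and immunoglobulin domains. Kcnip4 is a calcium-binding subunit of Kv4 potassium channels. Macrod2 removes ADP-ribose from proteins, and Cdkal1 modifies transfer RNA. Both of these enzymes act outside the nervous system too, and no expression value per gene was used here to check the word neuronal.

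The CLIP libraries held 159144, 209430 and 334857 unique tags, numbered 1 to 3 as in the labels. Marker genes were matched by symbol alone. The peaks carry older symbols for some genes, such as A2bp1 for Rbfox1, so a marker without a peak may be a missed name. The general neuron marker list had a peak in 4 of 6 genes, with none listed under the symbols Rbfox3 and Map2. The hippocampal neuron list had a peak in 5 of 6 genes, the astrocyte list in 5 of 6 and the oligodendrocyte list in 4 of 6. The endothelium list had a peak in 3 of 5 genes and the microglia list in 0 of 5. The choroid plexus list had a peak in 3 of 5 genes, with 157.1 to 1055 CPM over the libraries (CPM, tags per 1000000 unique tags of a library). Its part in the values below was not tested.

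A property of the tag files touches most results. Each tag name ends in a 4-base barcode and a number, and 334 of the 996 tags in the peaks of the 8 genes (33.5%) had the same start, end, strand and barcode as a tag of another library. Over the tags in all peaks it was 21515 of 107776 tags, and over all tags 15.5%. Among pairs of tags from different libraries in the peaks of the 8 genes, 73.5% of those with the same start and end also shared the barcode (191 of 260 pairs, 95% exact Clopper-Pearson interval 67.7 to 78.7%). Among pairs that overlapped with another start and another end the barcode was shared by 2.52% (34 of 1350 pairs). Over all peaks these shares were 42.3% (10669 of 25232 pairs) and 2.55%, so the first share was higher in the 8 genes than over all peaks. In the shared tags of the 8 genes, the larger number in the tag name had a median of 106 and the smaller a median of 1. The sum of these numbers came to 68.6, 70.5 and 63.4% of the raw reads of the libraries, so they were read as the reads merged into a tag, which no file states. Peak numbers and summed tags are therefore given with every deposited tag and again with shared tags counted once, in the library with the larger number. For 31 of the 159 shared position and barcode combinations in these peaks the numbers were equal, and the tag was given to the library numbered lower. That second way of counting was chosen after seeing the data.

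The number of peaks and the strength of peaks followed different orders among the 8 genes. Lingo2 had 80 peaks, the most of any gene, followed by Lrp1b with 27, Nrg3 with 26, Csmd1 and Kcnip4 with 22 each, Cdkal1 with 21, Opcml with 18 and Macrod2 with 17. Of the other 4792 genes, 5 had at least 17 peaks, namely Purg with 28, Zfp553 with 22, Zbtb20 with 21, 2210408I21Rik with 19 and Kcnj6 with 17, and Mdga2, Frmd5, Farp2 and Aak1 stood just below with 16 each. Peak height is the number of tags of all libraries stacked on the peak, and the lowest height listed differed from gene to gene. It was 2 for Lingo2 and Cdkal1, 3 for Lrp1b and Macrod2, 4 for Nrg3, Csmd1 and Kcnip4, and 6 for Opcml. In Lingo2 59 of the 80 peaks had a height of 2, and in Cdkal1 20 of 21 did.

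With 1 height limit of at least 6 tags for all genes, 44 of the 233 peaks were left (18.9%), against 57.3% of all 10407 peaks. Opcml then had 18 peaks and ranked 2 among all genes. Nrg3 had 11 peaks and Kcnip4 had 10, while Lingo2 had 2, Lrp1b, Csmd1 and Macrod2 had 1 each, and Cdkal1 had 0. Counting distinct tags, 33 of the 233 peaks reached 6, of which Opcml had 14, Kcnip4 9 and Nrg3 7. The gene with the most deposited peaks was thus not among the 3 of the 8 with the most peaks at this height.

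With shared tags counted once, a peak was kept if its distinct tags still reached the lowest height listed for its gene. Of the 233 peaks 145 were kept (62.2%), against 62.0% of the 10174 other peaks and 56.5% of the 3310 other peaks in introns. The limit did not bear equally on these sets. All other genes had a median of 1 peak, against 22 in the genes examined here. The only peak of a gene sets its own limit and is lost if any tag at its height is shared between libraries. The near-equal shares therefore do not show that the peaks were equally well supported. Lingo2 kept 44 peaks and remained the gene with the most. Nrg3 kept 20, Kcnip4 16, Csmd1 15, Lrp1b and Opcml 14 each, Cdkal1 12 and Macrod2 10. The plot of peak numbers sets these ways of counting side by side.

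**Figure D1:**
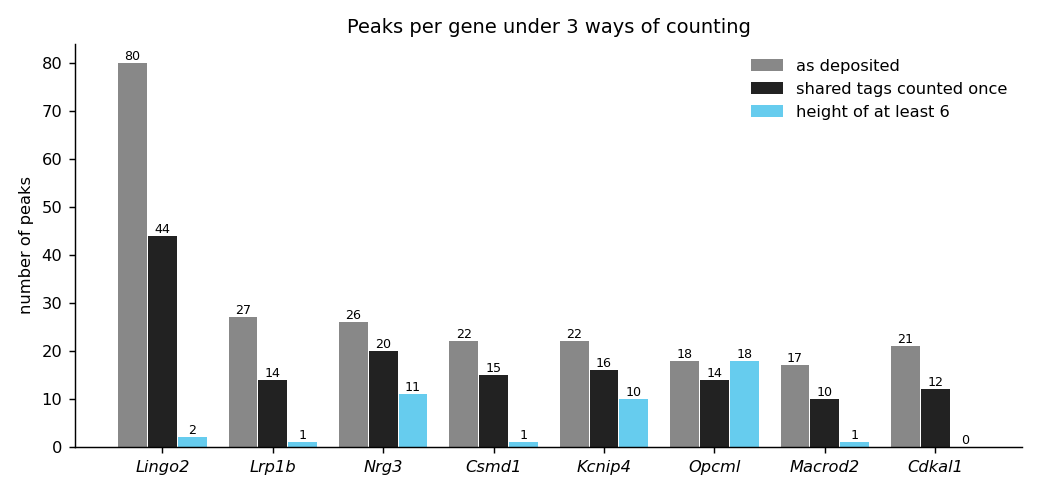
Number of Mbnl2 CLIP peaks of each gene (vertical axis) as deposited (grey), with tags of the same position and barcode counted once over libraries (black), and at a height of at least 6 tags (blue). Lingo2 leads with 80 and 44 peaks in the first 2 counts and has 2 in the last, where Opcml has 18.

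The 79 peaks of height 2 lay in Lingo2 and Cdkal1 and made up 33.9% of the 233 peaks, against 5.17% of the 10174 other peaks. In 42 of the 79 (53.2%) the height came from 1 tag listed in 2 libraries with the same position and barcode, against 316 of 526 (60.1%) for peaks of height 2 in other genes. A further 24 came from 1 library and 13 from different tags of 2 libraries, against 118 and 92 of the 526 in other genes. In Lingo2 these numbers were 33, 16 and 10 of 59, and the larger number in the names of the shared tags had a median of 131. In Cdkal1 they were 9, 8 and 3 of 20, with a median larger number of 1. The peaks of height 2 in these genes thus rested more often on 1 shared tag or on 1 library than on different tags of 2 libraries. The same held for peaks of height 2 in other genes, so it was not particular to the 8.

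Over all heights, 50 of the 233 peaks held a single position and barcode (21.5%), against 4.53% of the other 10174 peaks and 13.2% of the other peaks in introns. Lingo2 had 36 of the 50, Cdkal1 9, Macrod2 4 and Lrp1b 1, and Nrg3, Csmd1, Kcnip4 and Opcml had 0. Without Lingo2 the share was 9.15% of 153 peaks.

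The libraries did not all contribute to most of these peaks. Tags of all 3 libraries lay in 74 of the 233 peaks (31.8%, interval 25.8 to 38.2%), against 64.9% of the other 10174 peaks and 40.2% of the other peaks in introns. Lingo2 decided much of this value, and without it the share was 43.8% (35.8 to 52.0%), and without Lingo2 and Cdkal1 50.8% (41.9 to 59.6%). By gene, tags of all 3 libraries lay in 16 of 18 peaks of Opcml, 14 of 22 of Kcnip4, 13 of 26 of Nrg3, 8 of 22 of Csmd1, 8 of 27 of Lrp1b, 8 of 17 of Macrod2, 7 of 80 of Lingo2 and 0 of 21 of Cdkal1. A peak of height 2 cannot hold tags of 3 libraries stacked on it, so this order follows the heights in part by construction. With shared tags counted once, 47 peaks held tags of all 3 libraries (20.2%), of which Opcml had 14 and Kcnip4 11.

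Nearly all peaks lay in introns. The authors' annotation placed 228 of the 233 peaks in introns (97.9%, interval 95.1 to 99.3%), against 32.5% of the other 10174 peaks, of which 56.4% lay in 3′ untranslated regions. The exceptions were 4 peaks in the 3′ untranslated region of Opcml and 1 in coding sequence of Macrod2. Repeats were annotated at 71 peaks (30.5%, interval 24.6 to 36.8%), close to the 29.4% of the other intron peaks. LINE elements made up 35 of these, LTR elements 14 and simple repeats 9. LINE elements thus lay at 15.0% of the 233 peaks (interval 10.7 to 20.3%), against 9.24% of the other intron peaks. Without Lingo2 they lay at 11.8% (7.12 to 18.0%). In Lingo2 34 of 80 peaks overlapped a repeat, and in Opcml 1 of 18 did.

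The peaks were spread over most of a megabase or more in several genes, as the plot of peak positions shows. All coordinates are those of the authors' files on mouse build mm9, and the stretch from the first to the last peak is given, since no gene annotation of that build was used. It ran over 1720 kb in Macrod2 (chr2:140315928-142035876, plus strand), 1539 kb in Lrp1b (chr2:40959333-42498656, minus), 1223 kb in Lingo2 (chr4:35665931-36888650, minus) and 1042 kb in Opcml (chr9:27689486-28731948, plus). It was shorter in Csmd1 with 909.8 kb (chr8:16615969-17525761, minus), Kcnip4 with 773.6 kb (chr5:48900858-49674435, minus), Nrg3 with 581.1 kb (chr14:39641407-40222457, minus) and Cdkal1 with 470.4 kb (chr13:29456778-29927211, minus). Over all other genes with at least 2 peaks the median stretch was 2.70 kb. Over the list of other genes described further below it was 533.4 kb, against 976.1 kb for the 8. Cntnap2, one of those other genes, had a stretch of 2065 kb, so wide spread was not particular to the 8. The median gap between neighbouring peaks was 8.72 kb in Lingo2, 11.4 kb in Nrg3, 17.8 kb in Lrp1b, 19.5 kb in Kcnip4, 19.6 kb in Cdkal1, 21.1 kb in Csmd1, 46.1 kb in Opcml and 50.4 kb in Macrod2.

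**Figure D2:**
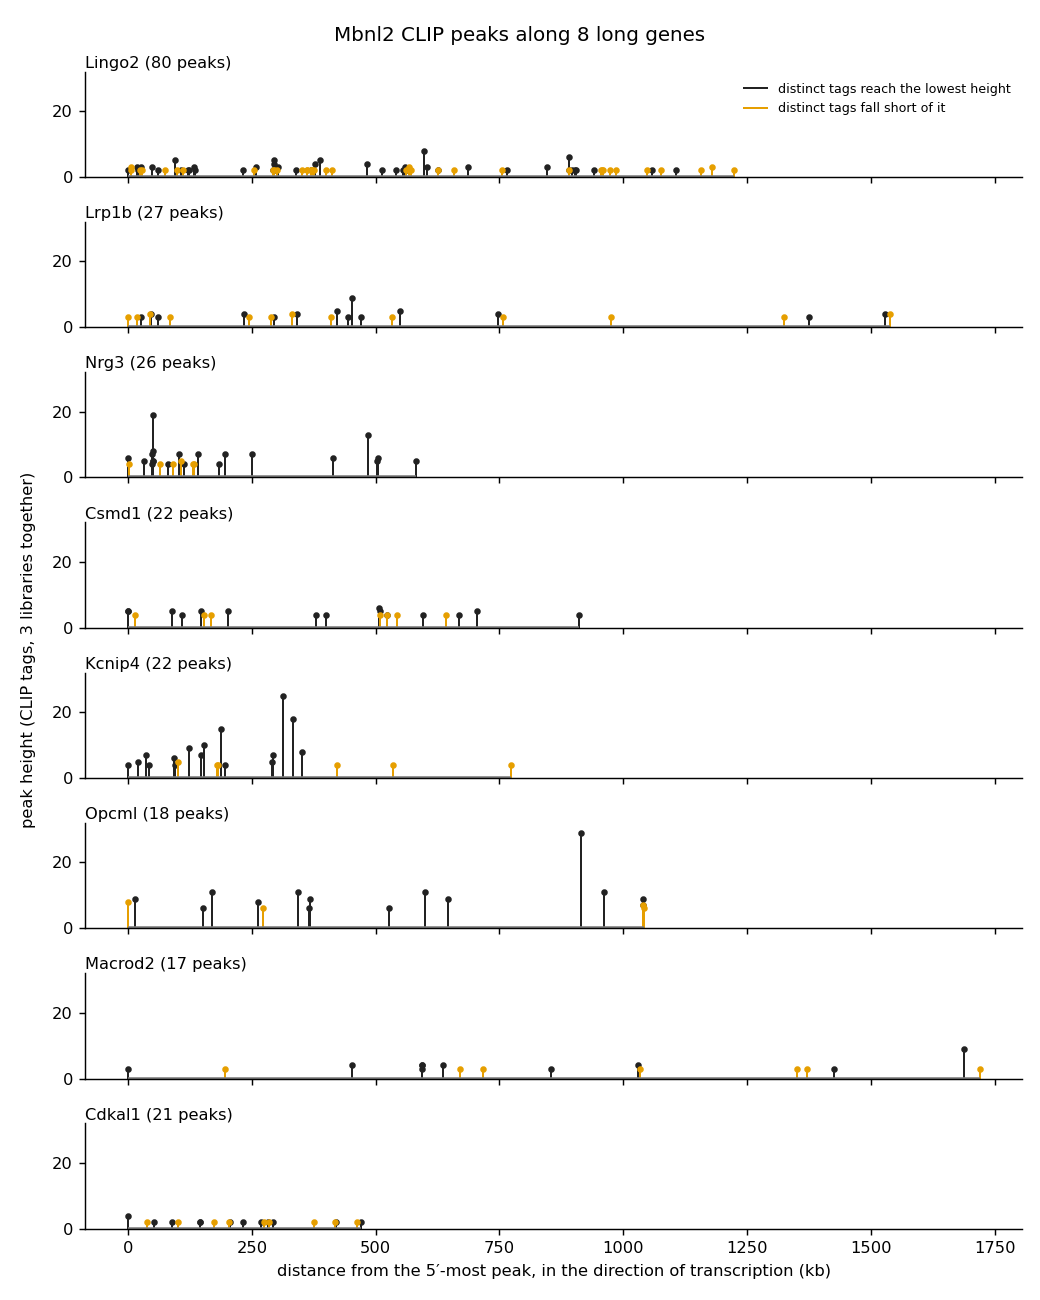
Position of each of the 233 peaks, in kb from the peak nearest the 5′ end of the transcript (horizontal axis), with its height in tags (vertical axis). Black peaks still reached the lowest height listed for their gene with shared tags counted once and orange peaks did not. The tall peaks stand in Kcnip4, Opcml and Nrg3, and the many peaks of Lingo2 reach at most 8 tags.

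Nrg3, the neuregulin ligand, had the group with the most peaks among those whose neighbouring peaks lay within 1000 nt. A group of 6 intronic peaks lay within 672 nt (chr14:40172526-40173197), with heights of 4 to 19 tags and 10, 17 and 21 tags from libraries 1 to 3. Its tallest peak, at chr14:40172702, had 4, 3 and 12 tags from libraries 1 to 3, and 17 of its 19 tags were distinct. A neighbour at chr14:40172526-40172527 reached a height of 8 with 0, 6 and 2 tags. Away from the group, a peak at chr14:39737388-39737398 had 4, 2 and 7 tags, of which 12 were distinct. All of the libraries thus held tags in both peaks of height 10 or more, while the neighbour had none from library 1.

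Kcnip4, the potassium channel subunit, had 4 peaks of height 10 or more, all intronic. They lay at 154.3, 187.7, 313.4 and 332.8 kb from the 5′-most peak. The tallest, at chr5:49361074, had 5, 9 and 11 tags from libraries 1 to 3, and 21 of its 25 tags were distinct. The next, at chr5:49341610-49341614 in a simple repeat, had 1, 7 and 10 tags, of which 17 were distinct. A peak at chr5:49486730-49486734 had 4, 5 and 7 tags over its length and 15 distinct tags at its height of 15. The remaining one, at chr5:49520168-49520175, had 2, 2 and 6 tags. Library 1 was low in the peak in the simple repeat, with 6.28 CPM, against 33.4 and 29.9 CPM in libraries 2 and 3.

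Opcml, an immunoglobulin-domain surface protein anchored to the membrane by a lipid, held the tallest peak of the 8 genes. It lay in an intron at chr9:28604610-28604626 and had 7, 5 and 17 tags from libraries 1 to 3, with 29 distinct tags from 15 different positions. A group of 3 peaks in the 3′ untranslated region lay within 264 nt (chr9:28728349-28728612), with heights of 7 to 9 and 4, 9 and 10 tags. Each of these 3 peaks had tags of every library. Of the 5 peaks of height 10 or more the other 4 had a height of 11 each and lay in introns. Those at chr9:27858232-27858234, chr9:28031792-28031805 and chr9:28651081-28651091 had 3, 4 and 4 tags, 4, 3 and 4 tags, and 1, 6 and 4 tags from libraries 1 to 3. The last, at chr9:28289923-28289934, had 0, 4 and 7 tags and was the exception, without a tag from library 1.

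The surface proteins Lrp1b, Lingo2 and Csmd1 had lower peaks. The tallest of Lrp1b, at chr2:42045441-42045442, had 2, 3 and 4 tags from libraries 1 to 3. The tallest of Lingo2, in a LINE element at chr4:36291596-36291614, had 4, 0 and 4 tags from 3 positions. The tallest of Csmd1, at chr8:17018058-17018074, had 3, 0 and 3 tags and belonged to a group of 3 peaks within 267 nt. Library 2 was thus absent from the tallest peak of Lingo2 and of Csmd1, and no peak of these 3 genes reached 10 tags.

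The enzymes had the fewest tags in peaks. The tallest peak of Macrod2, at chr2:142002517-142002535, had 3 tags from each library, from 3 positions. Its peak in coding sequence, at chr2:142035842-142035876, had 0, 2 and 1 tags, of which 2 were distinct. The tallest peak of Cdkal1, in a simple repeat at chr13:29927182-29927211, had 0, 0 and 4 tags. The peak of Cdkal1 that stood highest thus came from library 3 alone.

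Summed over the peaks of each gene, tags were scaled to CPM and compared between libraries and between ways of counting. The sums are not scaled to length, so they give no order of levels between genes. Lingo2 had 257.6, 281.7 and 292.7 CPM in libraries 1 to 3, a mean of 277.3 ± 17.9 (SD, n = 3). With shared tags counted once it had 255.9, 241.1 and 211.8 CPM, a mean of 236.3 ± 22.4. Library 3 was thus the highest for Lingo2 with every deposited tag and the lowest with shared tags counted once. Lrp1b had 125.7, 157.6 and 137.4 CPM from every tag and 115.1, 155.7 and 88.8 CPM with shared tags counted once, so its library 3 also became the lowest. A shared tag goes to the library with the larger number, and over all tags the median number was 26, 11 and 1 in libraries 1 to 3. With shared tags counted once, CPM use the tags left in each library, so the loss over the whole library is divided out. Shared tags were more frequent in these peaks than over all tags, so the drop of library 3 can still follow in part from that rule. How much was not tested.

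Opcml had 245.1, 224.4 and 250.9 CPM, a mean of 240.1 ± 13.9, and a mean of 232.1 ± 19.5 with shared tags counted once. Kcnip4 had 213.6, 229.2 and 250.9 CPM, a mean of 231.2 ± 18.7, and a mean of 222.8 ± 19.0. Both means moved by less than the spread between libraries. Nrg3 had 182.2, 253.1 and 229.9 CPM, a mean of 221.7 ± 36.1, and a mean of 204.4 ± 29.0 with shared tags counted once, with library 1 the lowest in both counts. The mean of Csmd1 was 138.9 ± 8.69 CPM from every tag and 131.9 ± 13.2 CPM with shared tags counted once. For Cdkal1 these means were 61.4 ± 4.61 and 54.2 ± 5.23 CPM. Macrod2 had 119.4, 90.7 and 71.7 CPM, a mean of 93.9 ± 24.0, and a mean of 75.8 ± 23.1 with shared tags counted once.

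**Figure D3:**
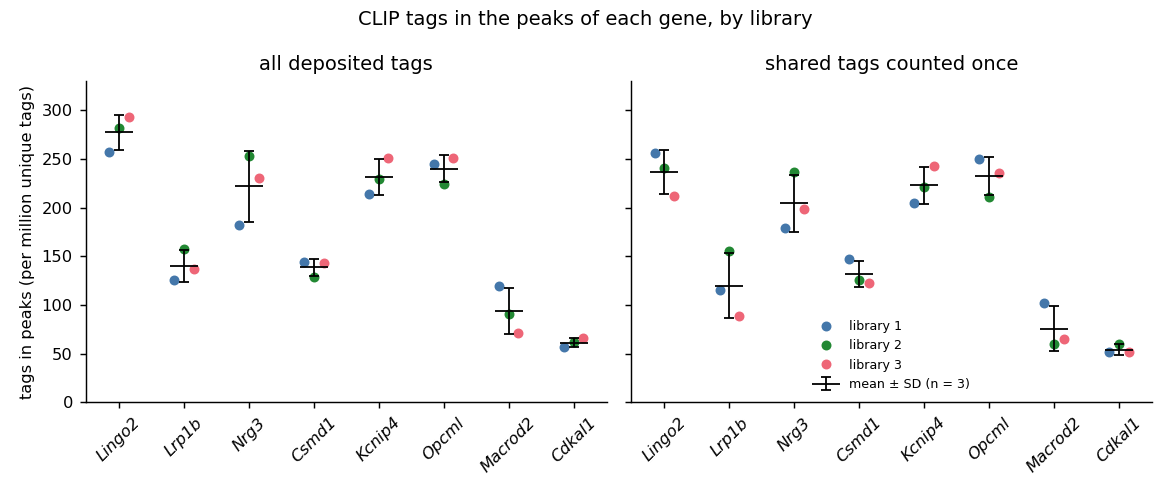
CLIP tags summed over the peaks of each gene, in CPM (vertical axis), in library 1 (blue), 2 (green) and 3 (red), with the mean and SD of the 3 libraries in black. The left panel counts every deposited tag and the right panel counts shared tags once. The mean of Lingo2 is 277.3 in the left panel and 236.3 in the right, while that of Opcml is 240.1 and 232.1.

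Whether a gene's tags were shared out over the libraries as the libraries' totals are was tested by a two-sided exact multinomial test with Benjamini-Hochberg adjustment over the 2244 genes with at least 10 tags in peaks. Of the 8 genes 0 passed an adjusted p of 0.05, and over all genes 26 passed, a share of 1.16%. Before adjustment the 8 p-values ran between 0.238 for Macrod2 and 0.980 for Cdkal1 by the exact test, so 0 were under 0.05 there too. Macrod2 had the lowest p, with 19, 19 and 24 tags in libraries 1 to 3. A p above the threshold does not show equal shares, and Cdkal1 was tested on 44 tags.

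Tags were also counted over the whole stretch between first and last peak. Outside peaks, 4990 of 5117 tags lay on the strand of the gene (97.5%, interval 97.1 to 97.9%), so the tags between the peaks were also nearly all of the sense strand. The share was lowest in Cdkal1, with 82.3% (51 sense and 11 antisense tags, interval 70.5 to 90.8%), and highest in Kcnip4, with 99.3% (98.5 to 99.7%). Sense tags, those in peaks included, numbered 149.9 per 100 kb in Nrg3, 147.5 in Kcnip4, 128.3 in Opcml and 107.5 in Csmd1. They numbered 44.7 per 100 kb in Lrp1b, 38.6 in Lingo2, 23.5 in Macrod2 and 20.2 in Cdkal1. The 4 genes with the sparser tags were also the 4 with a lowest listed height of 2 or 3.

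The share of sense tags that fell inside peaks differed with the height limit. It was 46.3% in Cdkal1 and 41.9% in Lingo2, the genes listed from a height of 2, and at most 18.3% (Nrg3) in the other 6, with 98 of 978 tags in Csmd1 the fewest. Scaled to the length of the stretch, Opcml had 171.8, 194.2 and 179.9 CPM of sense tags per 100 kb in libraries 1 to 3, and Lingo2 had 50.9, 55.1 and 56.7. By this measure Lingo2 was lower than Opcml in every library. Macrod2 and Cdkal1 were lower than Lingo2 in every library, and the remaining members were higher. The lengths used are set by the peaks themselves.

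Outside peaks, tags were denser near the 5′ end than near the 3′ end in all 8 genes. The stretch of each gene was cut into 3 equal parts, and sense tags outside peaks were counted in each. The 5′ part held more of them than the 3′ part in 8 of 8 genes, with a median of 45.2% of the tags in the 5′ part and 18.5% in the 3′ part. Lrp1b had 57.2% and 15.4%, Nrg3 50.0% and 27.5%, Opcml 47.7% and 18.3%, and Kcnip4 47.1% and 13.6%. Lingo2 had 43.4% and 31.0%, Macrod2 43.0% and 18.7%, Csmd1 41.6% and 21.5%, and Cdkal1 39.2% and 15.7%. In Cdkal1, with 51 such tags, the middle part held the most, 45.1%. By library, the 5′ part held more in 22 of 24 combinations of gene and library. The exceptions were library 1 of Lingo2, with 21 tags in each part, and library 2 of Cdkal1, with 4 and 5.

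The same count was made in other genes with at least 30 such tags. Of 76 other genes with a stretch of at least 400 kb, 48 had more tags in the 5′ part (63.2%), and their median shares were 37.6% and 31.2%. Of 104 other genes with a stretch of at least 100 kb and every peak in an intron, 66 did (63.5%), with medians of 38.9% and 30.4%. These counts were made after seeing the data, and the ends of the stretches are set by the peaks themselves. With shared tags counted once the shares of the 8 genes moved little, for example to 56.8% and 15.9% in Lrp1b and 43.4% and 30.9% in Lingo2. The peaks themselves were less uniform, with 18 of 27 in the 5′ part in Lrp1b and 19 of 26 in Nrg3, but 3 of 17 in Macrod2 and 7 of 18 in Opcml.

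**Figure D4:**
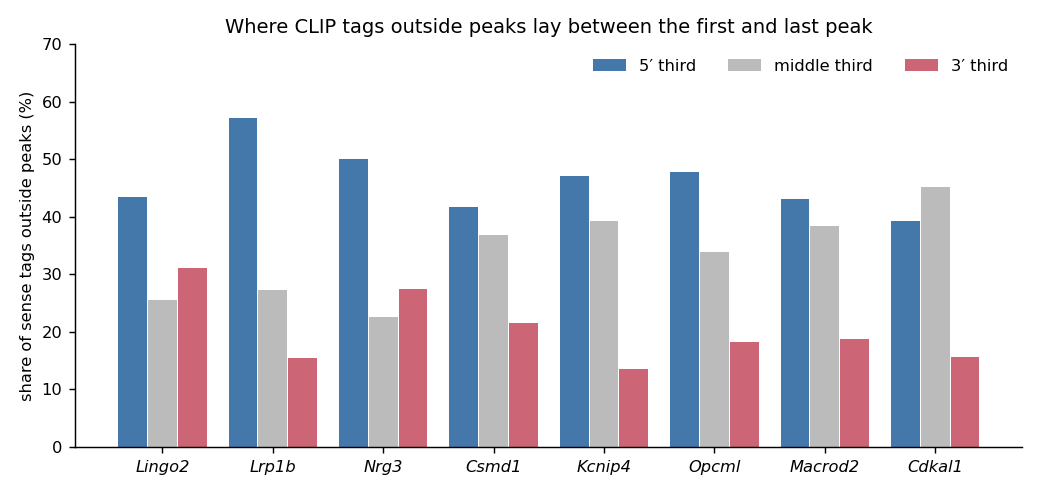
Share of sense CLIP tags outside peaks (vertical axis, percent) in the 5′, middle and 3′ part of the stretch between the first and last peak of each gene, over the 3 libraries. The 5′ part exceeds the 3′ part in all 8 genes, from 39.2% against 15.7% in Cdkal1 to 57.2% against 15.4% in Lrp1b.

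Other genes were set beside them from a list of 74 symbols, drawn up as long neuronal genes and relatives of the 8. Gene length was not checked for the list. It names some genes by both an older and a newer symbol, such as A2bp1 and Rbfox1, so it holds fewer genes than symbols. Of these symbols, 52 had a peak, with a median of 5 peaks and at most 15, and 75.8% of their 277 peaks were intronic. Single-tag peaks made up 4.69% of them, and 67.5% were kept with shared tags counted once, again by the lowest height listed for each gene. Among relatives of the 8 genes, Csmd3 and Lsamp had 7 peaks each, Negr1 5, Kcnip1 4 and Lrp1 1. Csmd2, Nrg1, Nrg2, Lingo1, Lrp2, Kcnip2, Kcnip3, Macrod1 and Cdk5rap1 had 0 under these symbols. Ntm also had 0 under that symbol, but Hnt, an older symbol of the same gene, had peaks over a stretch of 956.2 kb. All of them thus had fewer listed peaks than the 8 genes, which the choice of the 8 by peak number sets in part. The 5 genes nearest to the 8 by number of intronic peaks were Purg with 26, 2210408I21Rik and Zfp553 with 19, Zbtb20 with 18 and Mdga2 with 16. Frmd5, Farp2 and Kcnj6 also had 16, and Mdga2 was taken for its longer stretch. The peaks of Purg lay within 26.9 kb and those of Mdga2 within 678.6 kb.

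The tables of knockout against wild-type splicing held little on these genes. None of the 8 was among the 209 exons called changed by RNA-seq, the 290 exons of the joint table or the 151 events listed with reads, so 0 of 8 could be tested on reads. Lrp1b alone was among the 463 events of the splicing microarray and the 271 genes the authors listed as targets. The event is an exon of 99 nt with its flanks at chr2:40452594-40455773. In the authors' deposited table its inclusion signal was 1636 and its skipping signal 1358 in condition A, against 1372 and 1748 in condition B, ratios of 1.20 and 0.785. The authors' deposited table gives it a score of 0.662 with a q-value listed as 0, and another of the authors' deposited tables gives it a score of -0.66, with the opposite sign. Of the listed events 419 of 463 (90.5%) had a q-value of at most 0.05, and 68 (14.7%) had a score at least this large, so the call sets Lrp1b apart little from the list it stands in.

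No file names the genotype behind conditions A and B of the array. The array score had the sign of inclusion in A over B in 456 of 463 events, while the RNA-seq score had the sign of B over A in 141 of 151 events. The 2 scores shared their sign in 62 of 68 events with a q-value of at most 0.05 in both, so array condition A was paired with RNA-seq condition B. RNA-seq reads of condition A exceeded those of B by a ratio of 1.44, near the 1.42 by which wild-type junction fragments exceeded those of the knockout, so RNA-seq condition B was read as the knockout. By these steps array condition A would be the knockout, and inclusion of the Lrp1b exon would be higher in the knockout than in wild type. No file settles this reading, and if it were wrong the direction would turn over.

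The changed exon of Lrp1b lay far from its CLIP peaks. The nearest of its 27 peaks was 503.6 kb away on the 5′ side, and 0 tags lay in the event itself. Within 10 kb of the event there were 2, 0 and 3 sense tags in libraries 1 to 3. A count of 0 tags in the event allows up to 3 by counting error, so binding there was not detectable at this depth.

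The authors also listed 557 sites where CLIP tags carry recurrent mutations, a sign of the crosslinked base. None of the 557 lay in the 8 genes, by name or by position. The sites had a median of 40 tags and at least 4, and 41 of them lay in introns. The tallest peak of the 8 genes had 29 tags, and 114 of their 233 peaks had at least 4, so most of the sites rested on more tags than any of these peaks held.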

How the data were processed

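The 8 genes, the gene lists and the comparisons were chosen with earlier results of these data known. Per the submitters' processing notes, Novoalign was used for CLIP and TopHat 1.3.2 for RNA-seq, on mm9. Unique tags per library, raw reads and peak heights are counts deposited by the authors, and peaks were listed at a P below 0.01 after Bonferroni correction, per the file headers. The authors deposited their own p-values and q-values with the exon, array and site tables. Separation scores and inclusion signals of the array were deposited by the authors without naming the array. Changes of exon inclusion are a fraction in the authors' deposited tables. The number at the end of each tag name is not explained in the files.

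Tags on the strand of a peak that overlapped it by at least 1 base were counted per library. Tags covering the first base of a peak equalled the deposited height for all 10407 peaks, so the tags overlapping a peak can outnumber its height. CPM values use each library's unique tags. With shared tags counted once they use the tags left in each library, 156340, 199098 and 292672 in libraries 1 to 3. Gene totals were tested by a two-sided exact multinomial test with Benjamini-Hochberg adjustment. The 95% Clopper-Pearson intervals of shares hold counting error alone, because reads copied by PCR are not separate molecules. The p-values set each gene's tags in these libraries against counting error alone. The labels do not say whether each CLIP library is 1 animal, so the p-values measure no spread between animals. The planned test of exon reads could not be made, since none of the 8 genes is among the events with reads. Named peaks were the tallest of each gene, peaks of height 10 or more, and groups within 1000 nt of each other. The test was checked on simulated data. Software was scipy 1.17.1, pandas 2.3.3, numpy 2.4.6, matplotlib 3.10.9 and Python 3.11.15.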

Additional observations from a re-analysis of the deposited data

How the results depend on the processing

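The 8 genes passed the test between libraries in 0 of 8 cases under all 10 alternatives, with adjusted p-values by the exact test of at least 0.631 in all 80 results for single genes. The count over all genes was 26 of 2244 tested (1.16%). It was 16 of 2244 (0.713%) with expected shares from tags inside peaks and 3 of 1020 (0.294%) when tags were placed by their centre. In intronic peaks it was 5 of 423 (1.18%), nearly the same share as in the main count. With at least 30 tags per gene it was 28 of 876 (3.20%). Leaving out 1 library gave 9 of 1891 without library 1, 20 of 1730 without library 2 and 3 of 1388 without library 3.

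Of the 233 peaks, 145 were kept with shared tags counted once by start, end and barcode, 143 by 5′ end and barcode, and 44 at a height of at least 6. Leaving out 1 library left 61 to 167 peaks at the lowest listed height of their gene, 61 without library 3, which is the deepest, 114 without library 2 and 167 without library 1. For Lingo2 these were 24, 40 and 62 of 80 peaks.

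The share of peaks with tags of all 3 libraries was 31.8%, against 16.7% by tag centre, 20.2% with shared tags counted once and 90.9% (10 of 11) at a height of 10 or more. The summed level of 1405 ± 52.7 CPM (SD, n = 3) was 834.0 by tag centre, 241.5 in peaks of height 10 or more, 1277 with shared tags counted once and 9071 when scaled to the tags inside peaks, and 1386 to 1435 with 1 library left out. The intronic share of 97.9% was 100% (11 of 11) at a height of 10 or more, and the sense share stayed between 97.4 and 97.6%. The causes of these shifts beyond the fewer tags or peaks counted were not tested.

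No paired analysis was possible because the CLIP libraries form 1 group and exon changes came without values per sample. Annotated gene ends in place of the stretch between peaks were not run, for want of an annotation of the build used here. Depth limits single peaks: 168 of the 233 rested on at most 4 tags.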
